A study of Homo sapiens with 83 samples.

Results

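The 60 genes described here were those that fell to a low level when N-MYC was active in SHEP neuroblastoma cells. They were chosen by their expression in transcripts per 1000000 (TPM, corrected for transcript length): the mean over the SHEP MYC-ON libraries was below 1 TPM, the mean over the MYC-OFF libraries was at least 2 TPM, and MYC-ON was lower in each of the 2 replicate series. Of 60237 gene entries, 94 met these conditions, and the 60 with the lowest log2 ratio of the MYC-ON mean to the MYC-OFF mean (0.1 TPM added to each) were taken. The difference between MYC-ON and MYC-OFF in SHEP therefore selected the genes and is given as a description without a test. The response of SKNAS cells took no part in the choice and was tested. Slopes with time within a SHEP condition were fitted too, but they come from the same libraries as the means of the rule, and a gene that fell with time in MYC-ON met the limit of 1 TPM more easily.

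SHEP, an epithelial-like derivative of the SK-N-SH culture, and SKNAS are established human neuroblastoma lines, here in versions that constantly express N-MYC fused to a hormone-binding domain of the estrogen receptor. The fusion is inactive until 4-hydroxytamoxifen (4OHT) is given. Whether the engineered lines are single clones is not given in the sources used here. MYC-ON cells received 4OHT and MYC-OFF cells received ethanol, and 24 h later all cells received dexamethasone to align their clocks, so that the controls carry the fusion and the dexamethasone too. Circadian time (CT) counts hours after dexamethasone. SHEP was sampled every 4 h from CT24 to CT76 in 2 series (28 libraries in each condition), and SKNAS once over the same times (14 MYC-OFF libraries) or to CT72 (13 MYC-ON libraries). No cells without the fusion were given 4OHT in these libraries, so an effect of 4OHT and an effect of active N-MYC cannot be told apart.

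N-MYC, encoded by MYCN, is the transcription factor whose gene is amplified in high-risk neuroblastoma. With its partner MAX it binds E-boxes and raises genes of growth and metabolism, while many genes of adhesion, matrix and differentiation go down when MYC proteins are active. Neuroblastoma cells occur in an adrenergic state, marked by HAND2, and a mesenchymal state, marked by vimentin and fibronectin. On the lists used here, 19 of 22 mesenchymal markers had a mean of at least 1 TPM in SHEP MYC-OFF and 19 of 22 in SKNAS MYC-OFF. Of the 22 adrenergic markers, 6 had a mean of at least 1 TPM in SHEP MYC-OFF and 11 in SKNAS MYC-OFF. Under 0.1 TPM were 14 in SHEP MYC-OFF and 6 in SKNAS MYC-OFF. HAND2 averaged 15.7 TPM in SHEP MYC-OFF and 161 TPM in SKNAS MYC-OFF. Summed over the mesenchymal list, SHEP libraries held 6807 to 8730 TPM in MYC-OFF and 4631 to 5879 TPM in MYC-ON. The means of COL1A1 (2727 to 792 TPM) and FN1 (340 to 67.8 TPM) fell, while VIM was at 3469 and 3439 TPM. Of the 20 mesenchymal genes tested in SHEP, 13 were lower and 4 higher in MYC-ON (limma, limits given below). The share of all tested genes was 38.9% lower and 33.0% higher. The adrenergic sum was 64.9 to 96.9 TPM in SHEP MYC-OFF and 98.5 to 136 TPM in MYC-ON. Only 6 adrenergic genes were tested in SHEP, of which 2 were lower and 3 higher. Of the 11 tested in SKNAS, 10 were lower and 1 higher, against 34.2% lower and 13.9% higher of all genes tested there. In SKNAS the mesenchymal sum was 869 to 2410 and 717 to 2868 TPM. Of the 14 immune markers, 2 reached 1 TPM in SHEP MYC-OFF, CD68 at 46.1 TPM and CSF1R at 2.01 TPM. In SKNAS MYC-OFF 3 did, CD68 at 127 TPM, PTPRC at 80.4 TPM and FCER1G at 1.57 TPM, while PTPRC was listed at 0 in SHEP MYC-OFF and the T cell gene CD3E was at 0.00228 and 0 TPM. Of the 11 epithelial markers, 5 reached 1 TPM in SHEP MYC-OFF, led by the keratins KRT18 (949 TPM) and KRT8 (834 TPM) and by CLDN4 (64.7 TPM), while EPCAM averaged 0.225 TPM and CDH1 0.163 TPM. The summed epithelial list was 1259 to 2932 TPM in MYC-OFF and 1333 to 2204 TPM in MYC-ON.

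SHEP libraries held between 21726 and 25484 genes above 0, and their median log2(TPM + 1) ranged from 3.93 to 4.17. The 3 highest gene numbers came from the second MYC-ON series at CT64, CT68 and CT72. SKNAS libraries were less alike, with 16241 to 21971 genes above 0 and medians from 2.76 to 4.38, and only 3 of the 13 MYC-ON libraries had a median of at least 3.8, against 10 of the 14 MYC-OFF libraries. The read depth behind a single TPM value is unknown. In bulk RNA, fewer cells that express a gene and less RNA per cell cannot be told apart.

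The 60 genes were lowly expressed before activation and most of them remained detectable after it, so that "silenced" describes few of them. Their MYC-OFF means ran from 2.01 to 11.2 TPM with a median of 2.74 TPM, and 35 of them were under 3 TPM. Their MYC-ON means ran from 0.0311 to 0.978 TPM with a median of 0.650 TPM. The MYC-OFF mean was between 3.14 and 87.6 times the MYC-ON mean, with a median of 4.76 times. Of the 60 genes, 45 were above 0 TPM in all 28 MYC-ON libraries, and 4 were listed at 0 in at least 14 of them: TMEM265, AC092902.5, AC254633.1 and IGKV1OR-2. Summed over the 60 genes, MYC-OFF libraries held 188 to 232 TPM and MYC-ON libraries 22.2 to 57.8 TPM.

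When libraries of the same series and CT were paired, 45 genes were lower in MYC-ON in 28 of 28 pairs, and the least regular, AC092902.5, in 16. For 30 genes every MYC-ON library was below every MYC-OFF library. Of all 14362 genes with a mean of at least 1 TPM over the SHEP libraries, 6.36% were separated in this way, 38.9% were called lower in MYC-ON and 33.0% higher (limma on log2(TPM + 1), adjusted p of at most 0.05 and a change of at least 0.15). These shares describe the contrast that chose the genes and add nothing about them.

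**Figure D1:**
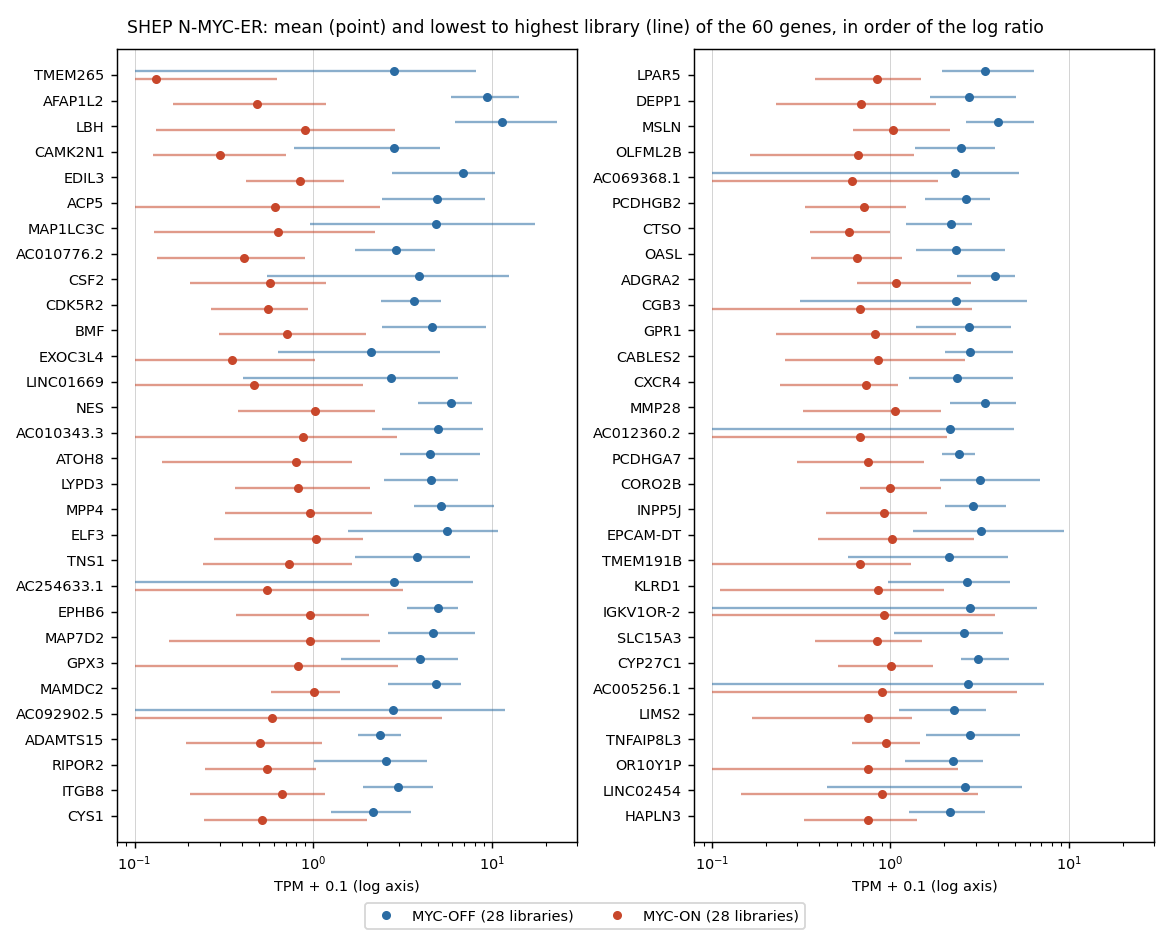
Expression of the 60 genes in SHEP, in the order of their log2 ratio, on a log axis of TPM + 0.1. Points are means of 28 libraries and lines run from the lowest to the highest library, in blue for MYC-OFF and red for MYC-ON; the lines of 30 genes do not overlap, and MYC-ON means sit at 0.978 TPM or lower.

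Of the 60 genes, 49 are annotated as protein coding and 7 as long non-coding RNAs in Gencode 44 (GRCh38). The others are an entry now marked as an artifact (LINC01669) and 3 pseudogenes (AC092902.5, IGKV1OR-2 and OR10Y1P). The levels of some members are uncertain because reads could be shared with other genes. PCDHGB2 and PCDHGA7 belong to the gamma protocadherin cluster on chromosome 5 and use the same last exons as their neighbours. CGB3, a gene of the chorionic gonadotropin beta subunit, has near-identical copies beside it. TMEM265 lies within the span annotated for SRCAP on the same strand, and 27 members overlap a gene on the opposite strand. Whether strand was used in the quantification is not given in the sources used here.

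The lowest ratio belonged to TMEM265, a transmembrane protein gene at chr16:30740642-30745196. Its MYC-OFF values ranged from 0 to 8.05 TPM with a median of 1.57 TPM, and its MYC-ON values from 0 to 0.526 TPM with a median of 0. It was listed at 0 in 25 of 28 MYC-ON libraries, but also in 9 of 28 MYC-OFF libraries, so its groups overlapped. Its level also differed between the series, with MYC-OFF means of 5.08 and 0.364 TPM.

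AFAP1L2 (chr10:114294824-114404756), an adaptor of Src and PI3K signalling, was the clearest case. It had 9.34 ± 2.02 TPM in MYC-OFF and 0.385 ± 0.268 TPM in MYC-ON (SD, n = 28 each). The lowest, median and highest MYC-OFF libraries were at 5.77, 9.29 and 14.03 TPM, and the MYC-ON libraries at 0.0636, 0.360 and 1.08 TPM. The groups did not overlap, and the mean was 24.2 times higher in MYC-OFF.

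LBH (chr2:30231534-30323730), a transcriptional co-regulator of limb and heart development, had the highest MYC-OFF mean of the 60 genes. Its MYC-OFF libraries spanned 6.10 to 23.2 TPM with a median of 10.4 TPM. Its MYC-ON libraries spanned 0.0313 to 2.78 TPM with a median of 0.512 TPM and stayed below all MYC-OFF libraries.

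Regulators of calcium, kinase and phosphatase activity followed. CAMK2N1 (chr1:20482391-20486210), which encodes an inhibitor of the calcium/calmodulin-dependent kinase CaMKII, ranged from 0.676 to 5.03 TPM (median 2.57) in MYC-OFF and from 0.0264 to 0.608 TPM (median 0.140) in MYC-ON. CDK5R2 (chr2:218959666-218962155), a neuronal activator of CDK5, ranged from 2.28 to 5.09 TPM (median 3.54) in MYC-OFF and from 0.168 to 0.836 TPM (median 0.446) in MYC-ON. Neither gene's groups overlapped. ACP5 (chr19:11574653-11579993), the tartrate-resistant acid phosphatase, ranged from 2.32 to 9.08 TPM (median 4.14) in MYC-OFF and from 0 to 2.27 TPM (median 0.407) in MYC-ON, again without overlap.

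Among secreted proteins, EDIL3 (chr5:83940554-84384880) encodes an integrin-binding matrix protein. Its MYC-OFF libraries ranged from 2.65 to 10.3 TPM (median 6.71) and its MYC-ON libraries from 0.321 to 1.38 TPM (median 0.684), without overlap. CSF2 (chr5:132073789-132076170), which encodes the cytokine GM-CSF, ranged from 0.448 to 12.4 TPM (median 2.98) in MYC-OFF and from 0.103 to 1.08 TPM (median 0.497) in MYC-ON. Its groups overlapped because its MYC-OFF level swung with time, although all 28 pairs of the same CT were lower in MYC-ON.

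MAP1LC3C (chr1:241995490-241999098), an LC3 family member that coats autophagosomes, ranged from 0.861 to 17.3 TPM (median 3.57) in MYC-OFF and from 0.0288 to 2.12 TPM (median 0.381) in MYC-ON. As with CSF2, its groups overlapped over the whole course but not at any one CT. The long non-coding RNA AC010776.2 (chr18:59696459-59698111), which overlaps CCBE1 on the other strand, ranged from 1.60 to 4.71 TPM (median 2.80) in MYC-OFF and from 0.0330 to 0.797 TPM (median 0.331) in MYC-ON, without overlap.

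The remaining genes covered several functions. Cell adhesion and matrix were represented by ITGB8, an integrin subunit that takes part in TGF-beta activation, the focal adhesion genes TNS1 and LIMS2, the proteases ADAMTS15 and MMP28, and the link protein gene HAPLN3. Receptors included EPHB6, an Eph receptor without kinase activity, the chemokine receptor CXCR4 and the natural killer cell receptor KLRD1. The cytoskeleton was represented by NES, the intermediate filament of neural progenitors, the microtubule-associated MAP7D2 and the coronin CORO2B. BMF encodes a pro-apoptotic BH3-only protein, OASL an interferon-induced protein, GPX3 a secreted glutathione peroxidase, and ATOH8 and ELF3 transcription factors of the bHLH and ETS families.

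Of the gene lists, 3 held at least 3 members. The matrix glycoprotein list held EDIL3, OLFML2B and HAPLN3, whose MYC-OFF means were 6.80, 2.39 and 2.05 TPM and whose MYC-ON means were 0.745, 0.555 and 0.648 TPM. Of the other 57 genes of this list that were tested in SHEP, 45 were lower and 5 higher in MYC-ON, with a median change of -0.82 on the log2(TPM + 1) scale, against a median of -0.04 over all genes. The most expressed of them, which were no members, also fell: TGFBI from 1291 ± 111 to 379 ± 172 TPM, SPARC from 1071 ± 61.4 to 621 ± 137 TPM and FN1, fibronectin, from 340 ± 110 to 67.8 ± 14.998 TPM (SD, n = 28 each; limma, adjusted p = 2.12e-24, 2.50e-14 and 1.02e-23). These 3 genes kept at least 67.8 TPM in MYC-ON, far above the members.

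The list of G protein-coupled receptors held LPAR5, a lysophosphatidic acid receptor, ADGRA2, an adhesion receptor, and GPR1, a chemerin receptor. Their MYC-OFF libraries ranged from 1.84 to 6.28, 2.25 to 4.85 and 1.28 to 4.65 TPM, and their MYC-ON libraries from 0.276 to 1.39, 0.548 to 2.73 and 0.129 to 2.22 TPM. The groups of LPAR5 did not overlap, while those of ADGRA2 and GPR1 did, although all 28 pairs of each were lower in MYC-ON. Of the other 94 genes of the list, 49 were lower and 27 higher in MYC-ON (median -0.20). Its most abundant genes were GNAS and GNAI2, which encode G protein alpha subunits, and the orphan receptor GPRC5A. GNAS changed by -0.29 ± 0.03, GNAI2 by -1.18 ± 0.04 and GPRC5A by -0.92 ± 0.06 (log2 change ± SE; limma, adjusted p = 3.36e-14, 2.47e-29 and 6.32e-20).

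The third list, of non-coding and antisense names, held 10 members. Here the remaining genes leaned the other way, with 481 of 1730 lower and 605 higher in MYC-ON (median 0.05). Its most abundant genes were AC116533.1 with a change of 0.37 ± 0.15, AC004057.1 with 0.11 ± 0.06 and AC243919.1 with 0.07 ± 0.04, of which the first passed the test (limma, adjusted p = 0.0241, 0.0815 and 0.136). Lists with 2 members each were cadherins (28 of 34 other genes lower, 1 higher), cytokines and chemokines with their receptors (52 of 75 lower, 10 higher), matrix proteases (58 of 77 lower, 11 higher) and developmental transcription factors (91 of 181 lower, 57 higher). Beside the counts of all these lists stand the shares of all 14362 genes tested in SHEP, 38.9% lower and 33.0% higher.

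The last genes to enter and the first to be left out had nearly equal ratios. OR10Y1P, LINC02454 and HAPLN3 had log2 ratios of -1.56, -1.54 and -1.53, and FOLR3, WNT7B and HMGN1P3, just outside, had -1.51, -1.51 and -1.49.

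RefSeq promoters (GRCh38.p14, 250 bases before to 50 after the start) were matched for 39 of the 60 genes, to see whether genes that moved together share a MYC-MAX site. The E-box CACGTG occurred in 2 of these 39 promoters (5.13%) and in 7.43% of all 27305 promoters. The AP-1 motif TGANTCA occurred in none of the 39, against 7.76% of all, and TATAAA in 6 (15.4%), against 11.95% of all, each counted on both strands. The median GC content was 60.3% for the 39 and 58.3% for all promoters, and the median observed over expected ratio of CpG was 0.476 and 0.580. The motifs do not overlap one another in the sequences shown. The promoters of MAP7D2 and EPCAM-DT are shown as the ones with an E-box, which MAP7D2 holds 3 times, and that of LBH, the most expressed member, for its TATAAA. Motifs are in capitals.
MAP7D2, chrX:20116858-20117157, minus strand: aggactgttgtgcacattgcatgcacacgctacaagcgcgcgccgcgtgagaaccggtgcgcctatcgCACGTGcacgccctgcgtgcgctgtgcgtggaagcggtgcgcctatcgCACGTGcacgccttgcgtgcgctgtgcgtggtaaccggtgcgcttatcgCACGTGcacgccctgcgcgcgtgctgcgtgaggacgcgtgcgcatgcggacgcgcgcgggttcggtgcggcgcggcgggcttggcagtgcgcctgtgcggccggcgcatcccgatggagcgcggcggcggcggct
EPCAM-DT, chr2:47345025-47345324, minus strand: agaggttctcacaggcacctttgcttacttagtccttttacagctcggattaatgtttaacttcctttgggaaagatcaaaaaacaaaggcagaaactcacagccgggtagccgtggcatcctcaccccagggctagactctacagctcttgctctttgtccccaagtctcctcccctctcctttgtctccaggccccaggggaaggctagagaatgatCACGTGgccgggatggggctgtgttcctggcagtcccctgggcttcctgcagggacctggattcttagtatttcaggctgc
LBH, chr2:30231284-30231583, plus strand: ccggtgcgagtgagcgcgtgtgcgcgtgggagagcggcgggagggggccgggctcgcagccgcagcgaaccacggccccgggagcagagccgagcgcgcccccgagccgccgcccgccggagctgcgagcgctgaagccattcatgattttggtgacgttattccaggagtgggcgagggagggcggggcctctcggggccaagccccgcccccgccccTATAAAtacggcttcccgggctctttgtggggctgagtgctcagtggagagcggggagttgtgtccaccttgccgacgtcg
The E-boxes of MAP7D2 began 182, 134 and 85 bases before the start, that of EPCAM-DT 31 bases before it, and the TATAAA of LBH also 31 bases before it. A match in these letters is a description and not evidence of binding.

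Within MYC-OFF cells, where N-MYC-ER was inactive, some of the 60 genes changed with CT. Time in culture and time after dexamethasone run together here and cannot be told apart. A straight line through log2(TPM + 1) over CT, scaled to the change from CT24 to CT76, was called for 7 falling genes (11.7%) and 6 rising genes (10.0%), against 8.20% and 4.65% of all 14362 genes (limma, adjusted p of at most 0.05 and a change of at least 0.15). Over all genes this was 1178 falling and 668 rising, and 800 and 901 after median-of-ratios rescaling, which left 7 members falling and 8 rising. The slopes of 28 genes were below 0. The median change was 0.01 for the 60 genes and -0.04 for all genes, and 26 members lay below that all-gene median.

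MAP1LC3C had the steepest fall. Its level was 17.3 and 16.7 TPM in the 2 series at CT24, 3.90 and 4.93 TPM at CT48, and 0.861 and 1.89 TPM at CT76, a change of -2.01 ± 0.26 (log2 ± SE, adjusted p = 3.79e-06). Most of this drop was over by CT32, where the series were at 2.84 and 3.96 TPM. CGB3 went from 5.67 and 5.05 TPM at CT24 to 1.17 and 1.02 TPM at CT76 (-1.68 ± 0.29, adjusted p = 1.28e-04).

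TNS1 averaged 5.82 ± 1.13 TPM over the first 3 CTs and 2.51 ± 0.748 TPM over the last 3 (SD, n = 6 libraries each), with a change of -1.01 ± 0.16 (adjusted p = 3.59e-05). CORO2B averaged 5.11 ± 0.964 and 2.26 ± 0.451 TPM over the same times (-0.91 ± 0.15, adjusted p = 1.14e-04). LBH averaged 16.7 ± 4.01 and 8.87 ± 3.01 TPM (-0.84 ± 0.23, adjusted p = 0.0116). LPAR5 and LIMS2 also fell, by 0.65 and 0.46 on the log2 scale.

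CSF2 rose most, from 1.42 ± 0.924 TPM over the first 3 CTs to 7.25 ± 3.89 TPM over the last 3 (1.65 ± 0.41, adjusted p = 0.00625). The rise was not steady: the level was 0.577 TPM on average at CT28, went up around CT40 and CT44, was down again to 2.95 and 0.486 TPM at CT48, and reached 11.1 and 4.80 TPM at CT76. The later rise was larger in series 1, and without it the change of CSF2 was 0.78 and not called. EDIL3 rose smoothly in both series, from 4.35 ± 1.34 to 9.08 ± 0.958 TPM (1.10 ± 0.13, adjusted p = 6.14e-07). HAPLN3 rose by 0.63 ± 0.15 (adjusted p = 0.00362), MAMDC2 by 0.48 ± 0.14 (adjusted p = 0.0174) and OLFML2B by 0.47 ± 0.15 (adjusted p = 0.0320), so that EDIL3, HAPLN3 and OLFML2B, the matrix glycoprotein members, all rose. ADGRA2 rose by 0.45.

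The MYC-OFF trend depended on the time points and the series. Without the first 2 and last 2 CTs, 1 member was called falling and 1 rising, and with the second series alone 3 and 1. Calls of CGB3, LBH, CSF2, HAPLN3, MAMDC2 and OLFML2B were among those lost without the first series. With the series as a block, 10 were falling and 9 rising, against 10.1% and 5.59% of all genes. Without the first 2 and last 2 CTs the change of MAP1LC3C was -0.82, and without the first series that of OLFML2B was 0.25.

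**Figure D2:**
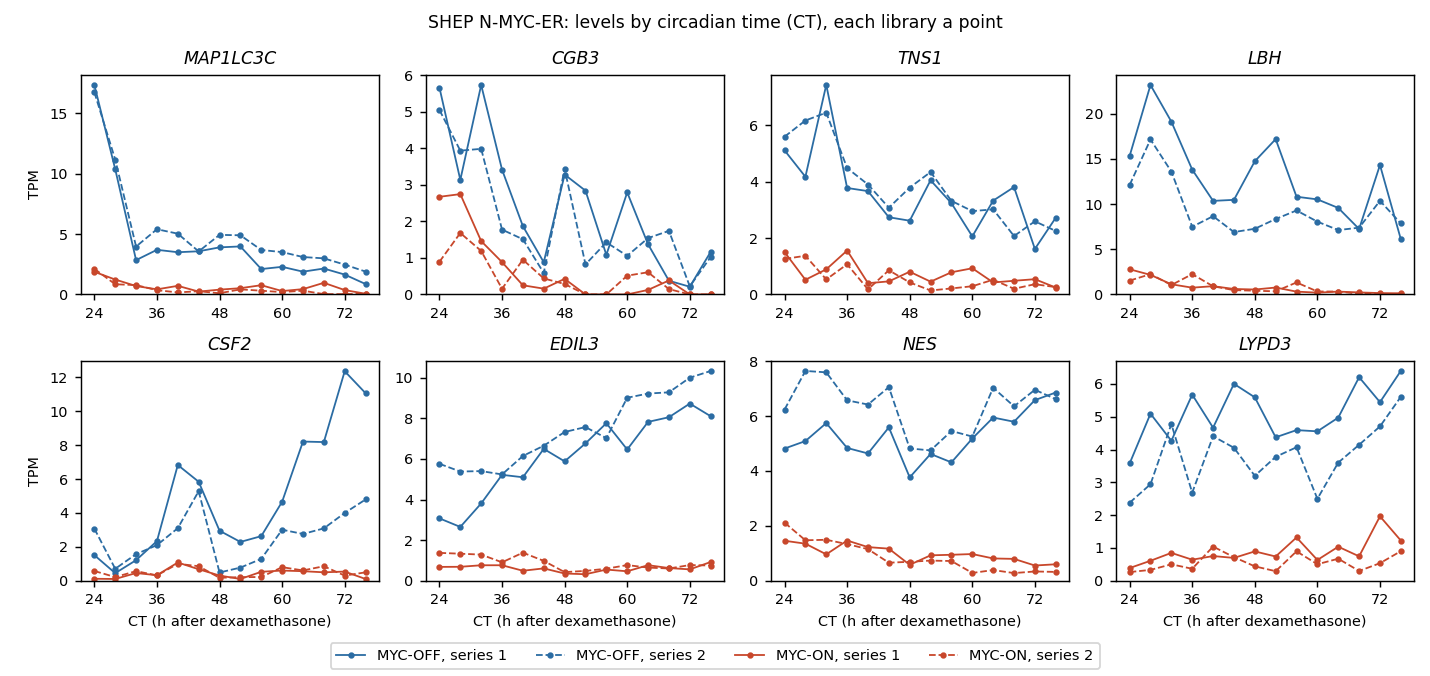
TPM of 8 genes against CT in SHEP, each library a point, with MYC-OFF in blue, MYC-ON in red, series 1 solid and series 2 dashed. MAP1LC3C drops early from 17.3 and 16.7 TPM in MYC-OFF while EDIL3 rises to 8.10 and 10.3 TPM at CT76, and the MYC-ON lines stay below the MYC-OFF lines of the same series, except for CGB3 at CT68 in series 1.

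A 24 h rhythm in MYC-OFF was called for none of the 60 genes, against 0.0975% of all genes (14 of 14362, and 1527 at an unadjusted p under 0.05; limma F test of the 24 h cosine and sine, adjusted p of at most 0.05). At an unadjusted p under 0.05 there were 7 members. The smallest unadjusted p values were 0.00163 for CSF2 (adjusted p = 0.211), with a fitted difference between peak and trough of 1.03 on the log2 scale, 0.00574 for MAMDC2 (adjusted p = 0.303, difference 0.37) and 0.00664 for MAP1LC3C (adjusted p = 0.310, difference 0.66).

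In MYC-ON cells the summed level of the 60 genes went lower over the course. It was 54.3 ± 3.02 TPM over the first 3 CTs and 29.5 ± 5.16 TPM over the last 3. In MYC-OFF the sum was 218 ± 11.3 and 207 ± 7.39 TPM at these times (SD, n = 6 libraries each in both conditions). The MYC-ON trend was called falling for 27 of the 60 genes (45.0%) and rising for 1 (1.67%), against 35.4% and 18.7% of all 14362 genes. All 60 had a MYC-ON mean under 1 TPM and passed the filter through their MYC-OFF level. With no filter 27 members fell, against 13.2% of 37736 genes, so the background depends on the filter. The genes added there had means under 1 TPM, while each member had a MYC-OFF mean of at least 2 TPM. The 13.2% is therefore not matched to the members in level. Because the MYC-ON values also chose the genes, these counts are a description. The same holds for the MYC-ON slopes, calls and adjusted p-values of single members given below. Slopes of 44 members were below 0, and the median change was -0.31 for the 60 genes and -0.12 for all genes. The slopes of 38 members lay below that all-gene median. The share of all genes with a slope below 0 was not counted. Over all genes 5084 fell and 2685 rose, and 3909 and 3660 after median-of-ratios rescaling, which brought the median of all genes to -0.01, that of the members to -0.26, and left 25 members falling. In the same libraries the number of genes above 0 ranged from 21783 to 23317 over the first 3 CTs and from 22351 to 25484 over the last 3; its part in the result was not tested. Without the first 2 and last 2 CTs, 17 members were called falling.

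LBH fell furthest, from 1.81 ± 0.693 TPM over the first 3 CTs to 0.116 ± 0.0678 TPM over the last 3 (-1.50 ± 0.17, adjusted p = 1.23e-08). CGB3 fell from 1.78 ± 0.772 to 0.0883 ± 0.156 TPM (-1.39 ± 0.23, adjusted p = 7.70e-06) and was listed at 0 in both series at CT76. Both genes also fell in MYC-OFF.

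GPX3 went from 1.46 ± 1.13 to 0.117 ± 0.0927 TPM (-1.18 ± 0.23, adjusted p = 8.31e-05), KLRD1 from 1.25 ± 0.706 to 0.188 ± 0.201 TPM (-1.09 ± 0.21, adjusted p = 5.74e-05) and MPP4, a membrane scaffold gene of photoreceptors, from 1.53 ± 0.336 to 0.313 ± 0.127 TPM (-1.03 ± 0.17, adjusted p = 6.97e-06). None of these 3 genes was called in MYC-OFF. Changes at this low level depend on the pseudocount. With 0.1 in place of 1 they were -3.55 for LBH, -3.92 for CGB3, -3.07 for GPX3, -2.85 for KLRD1 and -2.21 for MPP4. NES, at -0.90, was at 1.46 and 2.12 TPM in the 2 series at CT24 and at 0.599 and 0.321 TPM at CT76. Several members therefore had a mean above 1 TPM at the start of the course and met the limit of 1 TPM only as an average over it.

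LYPD3, a surface protein of epithelial cells, was the one member called rising in MYC-ON, from 0.490 ± 0.215 to 0.945 ± 0.591 TPM (0.41 ± 0.16, adjusted p = 0.0329). Without the first 2 and last 2 CTs its change was 0.01, and without series 1 it was 0.23 and not called. CGB3, LBH, LPAR5, MAP1LC3C and TNS1 were called falling in MYC-OFF and in MYC-ON, and OLFML2B rose in MYC-OFF and fell in MYC-ON. CSF2 and EDIL3, which rose most in MYC-OFF, had MYC-ON changes of 0.09 ± 0.17 and -0.28 ± 0.14 that did not pass the test (adjusted p = 0.672 and 0.106). Differences between the slopes were not tested.

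**Figure D3:**
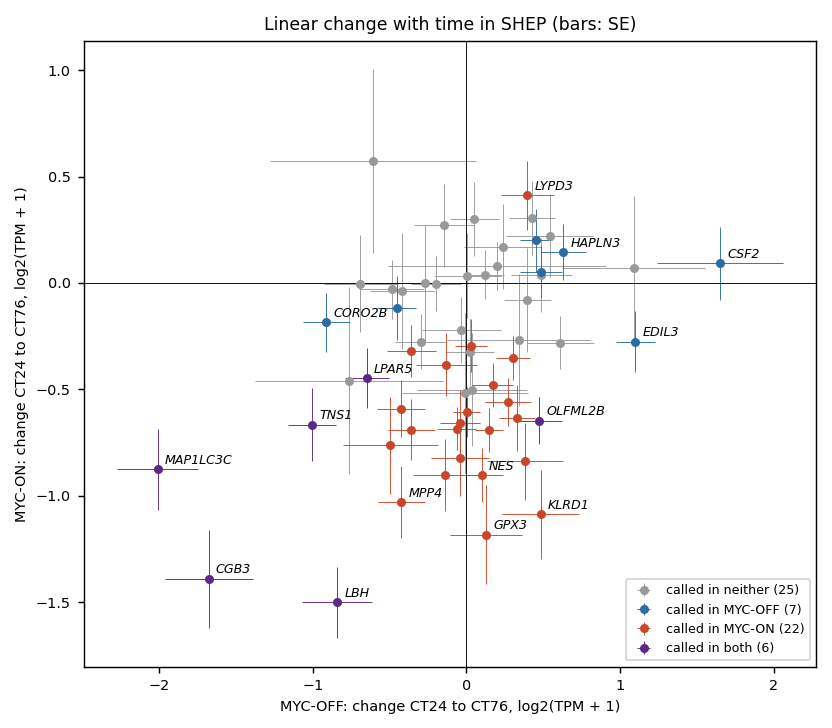
Linear change from CT24 to CT76 of the 60 genes in SHEP on the log2(TPM + 1) scale, MYC-OFF on the horizontal axis and MYC-ON on the vertical axis, with SE as bars. Colours mark the condition in which a change was called. More points lie below the horizontal line at 0 (44 genes) than left of the vertical line (28 genes). Below the median slope of all tested genes lay 38 members in MYC-ON and 26 in MYC-OFF.

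The MYC-OFF levels in SKNAS spread far more widely than in SHEP. They ran from 0 to 107 TPM with a median of 0.502 TPM. Of the 60 genes, 23 had a SKNAS MYC-OFF mean of at least 1 TPM, 24 were between 0.1 and 1 TPM, and 13 were under 0.1 TPM. AC010776.2, AC254633.1 and IGKV1OR-2 were listed at 0 in all SKNAS libraries. The mean was higher than in SHEP for 14 genes, led by ATOH8 (107 ± 24.5 TPM), NES (85.9 ± 19.7 TPM), MMP28 (37.3 ± 8.92 TPM), EPHB6 (33.4 ± 14.6 TPM), EDIL3 (21.1 ± 9.04 TPM) and TNS1 (21.1 ± 14.999 TPM; SD, n = 14). AFAP1L2 and MAP1LC3C, in contrast, were at 0.773 and 0.0471 TPM.

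**Figure D4:**
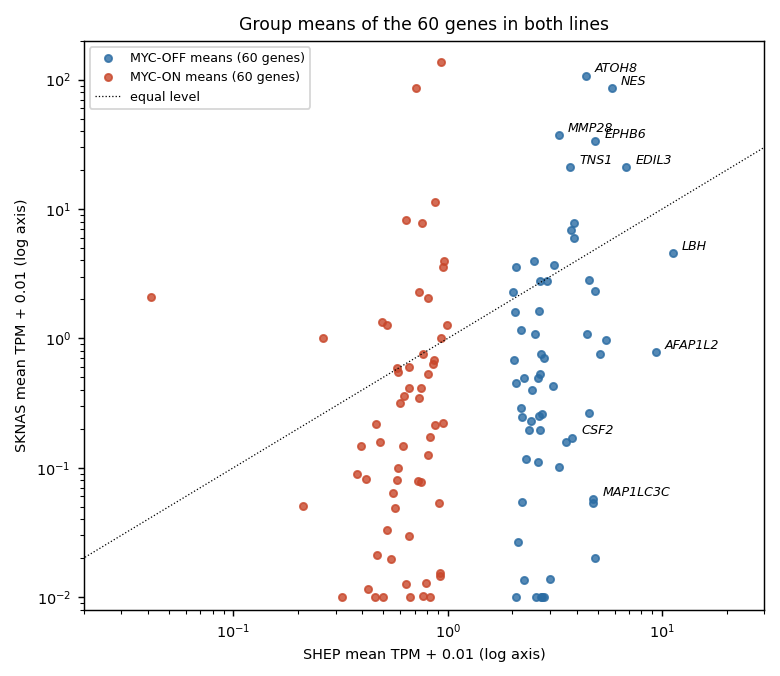
Group means of the 60 genes in SHEP (horizontal) and SKNAS (vertical) on log axes of TPM + 0.01, MYC-OFF in blue and MYC-ON in red; the dotted line marks equal levels. The rule confines the SHEP values to 2.01 to 11.2 TPM and 0.0311 to 0.978 TPM, while SKNAS MYC-OFF means reach 107 TPM and 14 of them lie above the line.

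In SKNAS, 20 members passed the filter of a mean of at least 1 TPM over the 27 libraries and 40 did not. Of the 20, 17 were lower in MYC-ON (85.0%), 1 was higher and 2 were not called, against 34.2% lower and 13.9% higher of all 13886 genes tested (limma with CT as a factor, adjusted p of at most 0.05 and a change of at least 0.15). BMF, ITGB8, HAPLN3, CABLES2 and LBH had a MYC-ON mean under 1 TPM and passed through their MYC-OFF level, so that this count leans toward lower genes. Without a filter, 57 members could be tested and 32 were lower (56.1%), against 15.5% of 32475 genes. The genes added there had means under 1 TPM and took the lower calls over all genes only from 4751 to 5042. The 15.5% is therefore not matched to the members in level. Whole libraries also differed: the median change of all tested genes was -0.29. Median-of-ratios rescaling brought this median to 0.03 and turned 4751 lower and 1925 higher genes into 3319 and 3829. After it, 14 of the 20 were lower (70.0%) against 23.9% of all genes. In the 13 libraries with a median of at least 3.8 it was 16 of the 20 (80.0%) against 25.5%. These were 10 MYC-OFF and only 3 MYC-ON libraries, fitted without CT. The summed immune marker list was 91.0 to 314 TPM in SKNAS MYC-OFF and 28.3 to 137 TPM in SKNAS MYC-ON. Its largest parts by mean were CD68 (127 and 48.3 TPM) and PTPRC (80.4 and 21.5 TPM). The part of this sum in the result was not tested.

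MMP28 (chr17:35756249-35795707), a secreted matrix metalloproteinase, changed most. Its MYC-OFF libraries ranged from 17.6 to 55.3 TPM (median 37.6) and its MYC-ON libraries from 1.77 to 5.37 TPM (median 4.29), a change of -2.90 ± 0.15 (adjusted p = 3.22e-09). It and EPCAM-DT were the 2 tested members whose MYC-ON libraries were all below the MYC-OFF libraries, a separation found in 2.09% of tested genes. EPCAM-DT ranged from 1.97 to 6.13 TPM (median 3.56) in MYC-OFF and from 0.206 to 1.65 TPM (median 1.07) in MYC-ON (-1.14 ± 0.15, adjusted p = 2.47e-05).

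LBH was low in MYC-ON in this line too. It ranged from 1.34 to 7.16 TPM (median 5.24) in MYC-OFF and from 0.137 to 1.35 TPM (median 0.438) in MYC-ON, was lower in 13 of 13 pairs of the same CT and changed by -1.77 ± 0.18 (adjusted p = 1.79e-06). EPHB6 ranged from 22.6 to 75.1 TPM (median 27.97) in MYC-OFF and from 5.11 to 23.1 TPM (median 9.63) in MYC-ON, lower in 13 of 13 pairs (-1.55 ± 0.20, adjusted p = 1.80e-05). The SKNAS MYC-ON mean of EPHB6 was 11.4 TPM, and its MYC-OFF mean was also higher in SKNAS than in SHEP. In SHEP, where the rule held all MYC-ON means under 1 TPM, EPHB6 averaged 0.864 TPM in MYC-ON.

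ADGRA2 ranged from 0.245 to 11.3 TPM (median 8.26) in MYC-OFF and from 0.0641 to 4.07 TPM (median 1.05) in MYC-ON, with overlap (-1.52 ± 0.32, adjusted p = 0.00126). EDIL3 ranged from 6.31 to 32.7 TPM (median 22.6) and from 2.15 to 21.1 TPM (median 6.42), lower in 12 of 13 pairs (-1.39 ± 0.24, adjusted p = 2.08e-04). Both changes were smaller where library medians were taken into account. With the library median as a covariate they were -0.72 for ADGRA2 and -0.85 for EDIL3, and in the libraries with a median of at least 3.8 that of EDIL3 was -0.62, all still called.

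BMF averaged 2.80 ± 1.55 TPM in MYC-OFF and 0.349 ± 0.205 TPM in MYC-ON (-1.30 ± 0.19, adjusted p = 5.67e-05), and ITGB8 2.75 ± 1.22 and 0.575 ± 0.261 TPM (-1.17 ± 0.16, adjusted p = 3.60e-05). GPX3 averaged 5.98 ± 1.55 and 2.26 ± 0.741 TPM and was lower in 13 of 13 pairs (-1.08 ± 0.11, adjusted p = 1.72e-06). With a pseudocount of 0.1 the changes were -2.30 for BMF, -1.99 for ITGB8, -2.93 for LBH and -1.74 for EPCAM-DT.

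TNS1 was less certain. It averaged 21.1 ± 14.999 TPM in MYC-OFF and 8.26 ± 8.03 TPM in MYC-ON (-1.17 ± 0.40, adjusted p = 0.0248), but with the library median as a covariate the change was -0.18 and in the libraries with a median of at least 3.8 it was -0.39, neither called.

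CABLES2, MSLN, CTSO, HAPLN3, LINC02454, EXOC3L4 and ACP5 were also lower, by between 0.56 and 1.06 on the log2 scale. Among the members of the lists described above, OLFML2B, LPAR5 and GPR1 did not pass the filter in SKNAS, with MYC-OFF means of 0.186, 0.0917 and 0.239 TPM and MYC-ON means of 0.0389, 0.0671 and 0.0689 TPM.

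NES (chr1:156668763-156677407) was the exception. Its SKNAS MYC-OFF libraries ranged from 33.9 to 104 TPM (median 91.6) and its MYC-ON libraries from 107 to 161 TPM (median 137), so that the groups did not overlap and MYC-ON was higher in 13 of 13 pairs (0.72 ± 0.11, adjusted p = 9.20e-05). Under the alternatives its change stayed between 0.57 and 1.10. In SHEP the same gene ranged from 3.76 to 7.64 TPM in MYC-OFF and from 0.279 to 2.12 TPM in MYC-ON and was lower in 28 of 28 pairs. ATOH8 averaged 107 ± 24.5 TPM in MYC-OFF and 85.9 ± 20.1 TPM in MYC-ON (-0.29 ± 0.16, adjusted p = 0.138), and TMEM265 0.744 ± 1.65 and 2.07 ± 3.44 TPM (0.42 ± 0.35, adjusted p = 0.329), neither called.

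**Figure D5:**
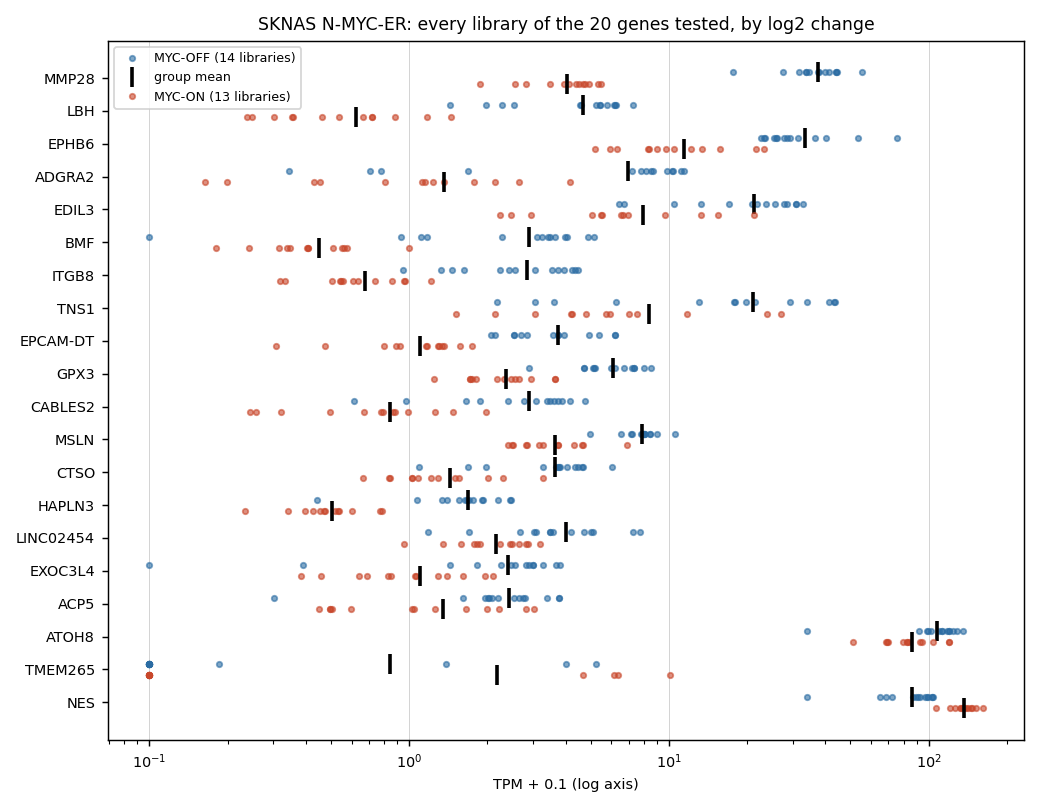
TPM + 0.1 on a log axis of the 20 members tested in SKNAS, each library a point, with 14 MYC-OFF libraries in blue, 13 MYC-ON libraries in red and a black bar at each group mean. Genes are ordered by log2 change, from MMP28 at -2.90 at the top to NES at 0.72 at the bottom.

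Of the 37 members with a SKNAS MYC-OFF mean under 1 TPM, 24 were between 0.1 and 1 TPM, and 20 of these 24 had a lower mean in MYC-ON. The median of the MYC-ON mean as a percentage of the MYC-OFF mean was 22.9% for these 24 genes and 61.8% for all genes in that range. Lower MYC-ON means were therefore common among all genes of that range too. For the 23 members at 1 TPM or more it was 34.1%, against 77.5% for all 14119 such genes. Of the 23, 22 were lower by their means, against 69.7% of all such genes, and 9 averaged under 1 TPM in MYC-ON. The shares of all genes to set beside 20 of 24 and 9 of 23 were not counted. Genes entered these ranges by their MYC-OFF mean alone, which favours a lower MYC-ON mean, so these values are a description. In SHEP the median percentage over the 60 genes, which the rule fixed to be low, was 21.1%.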

How the data were processed

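RNA was sequenced from 83 libraries of 2 neuroblastoma lines as polyadenylated paired-end reads. The deposited TPM values (60237 genes, each library summing to 1000000) were made by the authors with Salmon 1.3.0 on human transcripts of GRCh38, summed per gene. TPM scale with gene length and library composition and keep no read depth, so a low value has unknown counting error. Groups came from the sample labels; 0 columns lacked a sample. The SHEP series are labelled as replicates, and each time point counted as 1 sample, as in the study's design; consecutive samples of one culture series may be alike, so p-values measure the spread between these libraries.

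TPM were taken as log2(TPM + 1) and fitted in limma 3.58.1 (R 4.3.3; eBayes with trend), two-sided, with Benjamini-Hochberg adjustment over all genes with a mean of at least 1 TPM in the line. Fits were tested on data simulated with independent noise in each library. Such data cannot show how likeness between consecutive samples or shifts of whole libraries affect the p-values. The rhythm fit removed the mean and linear trend of each series. Alternatives were another pseudocount, filter, median-of-ratios scaling, covariates, the replicate block and omission of a series or of time points. Positions and gene types came from Gencode 44, and promoters from RefSeq. The genes were chosen, and the lists and tests set, with earlier results of these data known.

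Named with full values were the 10 lowest ratios, members of lists with 3 or more members (and the 3 most expressed other genes of each list), up to 10 genes called in each direction in SKNAS, up to 5 in each direction in each time trend, the 3 smallest rhythm p-values and the 3 genes on either side of the limit; other genes were named after their values were seen.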

Additional observations from a re-analysis of the deposited data

Results flagged for a closer look

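NES, the neural progenitor filament gene, was lower in MYC-ON in all 28 SHEP pairs and higher in all 13 SKNAS pairs of the same CT, with a SKNAS change of 0.72 on the log2(TPM + 1) scale. The difference between the lines was not tested, since the SHEP values chose the gene.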

How the results depend on the processing

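The rule kept 60 and 57 of the 60 genes with an offset of 0.01 and 1, 58 after median-of-ratios rescaling, and 45 to 47 with 1 SHEP series. In SKNAS, 14 to 17 members were lower under the 6 alternatives that kept the filter on the mean at 1 TPM (the one restricted to libraries with a median of at least 3.8 was chosen after seeing the data), 32 with no filter and 5 with a mean of at least 5 TPM, since more or fewer genes were tested; 1 was higher in each. In the SHEP MYC-OFF trend, members falling numbered 3 to 8 with 1 series and 1 without the first 2 and last 2 CTs, and members rising 1 to 7 and 1. In the MYC-ON trend, members falling numbered 21 to 24 with 1 series and 17 without the first 2 and last 2 CTs; members rising numbered 0 to 2, 0, and 0 with no filter. The cause was not tested. Over all genes, the MYC-OFF trend called 1846, 337 without series 1 and 300 without the first 2 and last 2 CTs, the MYC-ON trend 7769 and 5085 without those CTs, and the rhythm test 14 against 0 to 18 under its alternatives, with no member in any. Of the list genes that are no members, 1741 were higher in SHEP with no filter, against 1112.

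With the replicate block, 10 members fell and 9 rose in MYC-OFF, and 27 and 1 in MYC-ON. The series numbers mark only 2 pairs and do not show a shared day or batch; the difference between series correlated over genes at 0.489 between MYC-OFF and MYC-ON. Without the block in the rhythm fit, 0 members were called. Of 194 alternatives for 27 single changes, 172 kept the call, 22 lost it and 0 reversed, 10 of the losses without the first 2 and last 2 CTs and 7 without series 1. TPM near or below 1 limit every MYC-ON value.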
